A study of Mus musculus with 8 samples.

Results

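The levels of 8 miRNAs known for other organs were followed in mouse kidney: mmu-miR-124, mmu-miR-9 and mmu-miR-9* of the brain, mmu-miR-122 of the liver, and mmu-miR-375, mmu-miR-216a, mmu-miR-216b and mmu-miR-217 of the pancreas (the prefix for mouse is left out from here on). They were taken by their names in the array design, as 8 of the 611 mouse miRNAs on the array. The rule used no values, but it was set with earlier results of these data known. All kidneys came from ICR mice, an outbred laboratory strain, in which one ureter had been ligated for 7 days. Obstructed kidneys (UUO, for unilateral ureteral obstruction) lay on the ligated side, and control kidneys were the contralateral organs, which therefore came from operated mice too. RNA of 4 contralateral and 4 obstructed kidneys was labelled with Cy3 and hybridised to 1-colour Agilent miRNA arrays, 1 sample per array. The labels do not state that the kidneys of a group came from separate mice, so p-values measure the spread between these samples only.

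A miRNA is a short RNA that guides repression of messenger RNAs, chiefly through pairing of its seed, bases 2 to 8 from the 5′ end. miR-124 is the classic miRNA of neurons, and miR-9 and miR-9* are the opposite strands of the same precursors, expressed in neural progenitors and brain. miR-122 is the dominant miRNA of hepatocytes. miR-375 is known from pancreatic islets, where it restrains insulin secretion, and also from other endocrine cells and epithelia. miR-216a, miR-216b and miR-217 are known from the acinar tissue of the pancreas and lie in one genomic cluster. None of the 8 is regarded as a typical miRNA of kidney tubules, so they served here as references from other organs.

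The mature sequences below are from RefSeq (GRCm38.p6). They are shown because the detected brain pair are opposite strands of the same precursors, and the undetected pancreas miRNAs lie in 1 cluster. In that cluster, miR-216a and miR-216b have similar seeds. Capitals mark the seed, and the RefSeq strand names follow the array names.
miR-9 (miR-9-5p): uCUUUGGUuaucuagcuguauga
miR-9* (miR-9-3p): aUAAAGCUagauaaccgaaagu
miR-216a (miR-216a-5p): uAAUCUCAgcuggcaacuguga
miR-216b (miR-216b-5p): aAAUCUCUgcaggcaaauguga
miR-217 (miR-217-5p): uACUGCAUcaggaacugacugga

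Both strands of miR-9 were encoded at 3 loci with identical mature sequences: Mir9-1 on chromosome 3, Mir9-2 on chromosome 13 and Mir9-3 on chromosome 7, all on the + strand. The arrays therefore could not tell which locus a signal came from. miR-9 and miR-9* contain an uninterrupted stretch of 12 bases that pair with each other, and their seeds differ. miR-216a and miR-216b were identical at 18 of 22 positions counted from the 5′ end. Their seeds differed by 1 base, A8U from miR-216a to miR-216b, so they share bases 2 to 7 but not the whole seed. The precursors of miR-216b (chr11:28746191-28746276), miR-216a (chr11:28757012-28757083) and miR-217 (chr11:28763728-28763835) lie on the + strand within 17645 bases. For each of the 5 sequences, none of the 1679 mouse mature names in the RefSeq table, itself excepted, carried the same 7-base seed.

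Detection divided the 8 miRNAs. miR-9 and miR-9* were above background on all 8 arrays, miR-375 on 5, and miR-124, miR-122, miR-216a, miR-216b and miR-217 on none. A probe counted as above background when over 50% of its spots carried the scanner software's mark for signal well above background, and 1 such probe sufficed for its miRNA. Among all 611 mouse miRNAs, 205 were above background on every array, or 33.6%, and 290 on none, or 47.5%. Of the 39 viral miRNAs that the array also probes, 31 were above background on none and 3 on all 8, and the labels mention no infection. None of the spots of negative control probes carried the mark.

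The 5 undetected miRNAs gave signals around 0 in both groups. Over their 775 spots on the 8 arrays that were not outliers, 0 carried the mark. Processed signal is spot intensity after background subtraction by the scanner software, in arbitrary units, and falls below 0 where a spot is dimmer than its estimated background. Averaged over the probes of a miRNA, it ran from -2.38 to 1.86 across these 5 miRNAs and 8 arrays. The 99th percentile of negative control spots lay between 5.23 and 6.51, above every one of these values.

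miR-124, the neuronal miRNA, gave -1.83 ± 0.40 in contralateral and -1.48 ± 0.49 in obstructed kidneys (mean processed signal, SD, n = 4 each). The liver miRNA miR-122 gave 0.96 ± 0.47 in contralateral and 0.95 ± 0.93 in obstructed kidneys. In the pancreas cluster, miR-216a was at -1.41 ± 0.41 in contralateral and -1.60 ± 0.71 in obstructed kidneys, and miR-216b at -2.01 ± 0.17 and -1.77 ± 0.62 in the same order. miR-217 was at -1.93 ± 0.40 in contralateral and -1.15 ± 1.19 in obstructed kidneys, its highest value being 0.40 on the array of obstructed kidney 4. All 5 lay at the common floor of the log2 scale on all 8 arrays, so no fold change was computed for any of them. These arrays set only a limit on their levels: they were not well above background in either group.

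**Figure D1:**
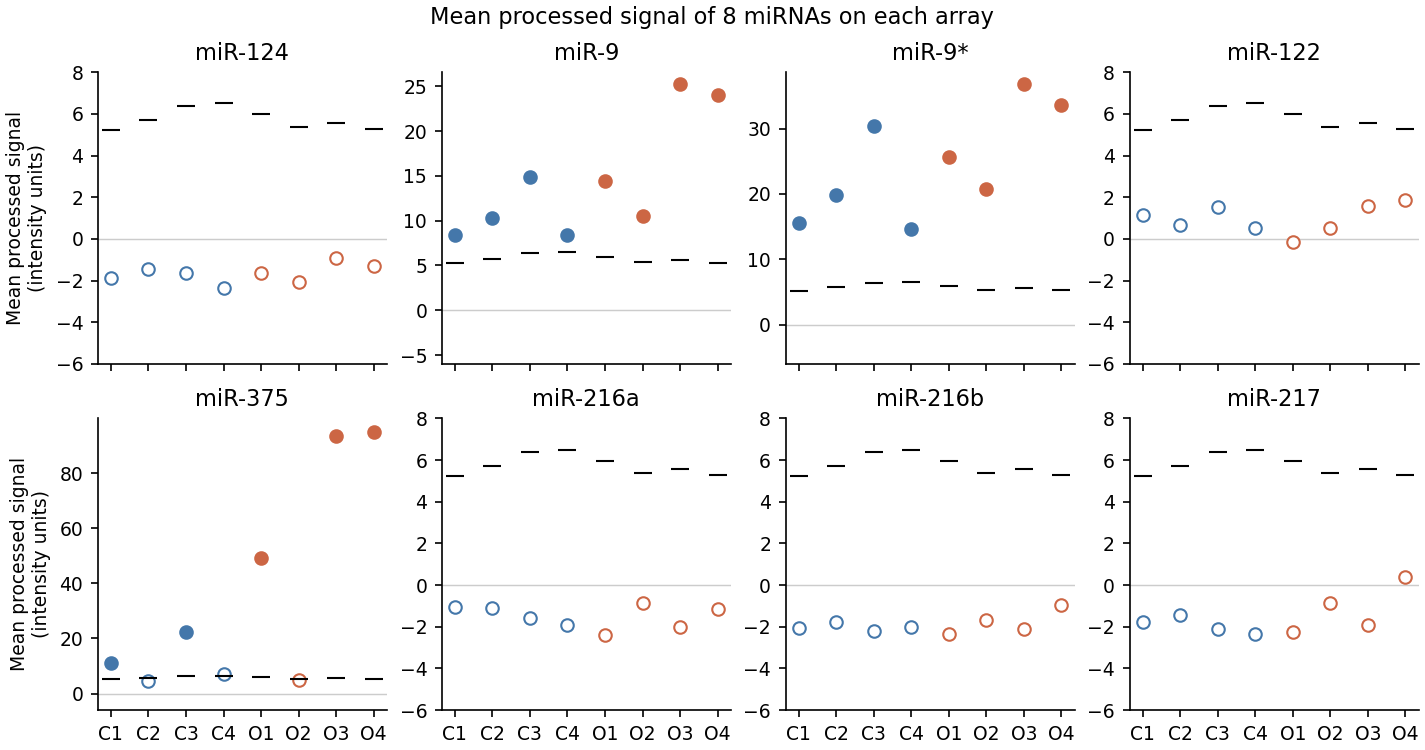
Mean processed signal over the probes of each miRNA (vertical axis, intensity units, with its own range in the panels of miR-9, miR-9* and miR-375) on the arrays of contralateral kidneys C1 to C4 and obstructed kidneys O1 to O4. Filled points are above background, open points are not, and black bars mark the 99th percentile of negative control spots. The undetected miRNAs stay below the bars on all 8 arrays, and miR-375 reaches 95.1 on the array of obstructed kidney 4.

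miR-375, of pancreatic islets and other secretory cells, was the member with the widest range. In contralateral kidneys 1 to 4 its mean processed signal was 11.1, 4.62, 22.2 and 7.30. In obstructed kidneys 1 to 4 it was 49.3, 4.92, 93.3 and 95.1. Obstructed kidneys 1, 3 and 4 were each above all contralateral kidneys, whereas obstructed kidney 2 lay within the contralateral range, so the groups overlapped. It was above background in contralateral kidneys 1 and 3 (2 of 4) and in obstructed kidneys 1, 3 and 4 (3 of 4).

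Arrays differed in brightness, and the brightest were those of obstructed kidneys 3 and 4. The 75th percentile of signal, over the 371 probes above background on all arrays, was 417 to 582 in contralateral and 514 to 1595 in obstructed kidneys. Signals were therefore divided by that percentile, summed over the probes of a miRNA, raised to a common floor of 0.0213 where lower, and taken to log2. A difference on this scale is thus relative to that array's brighter probes. Detected mouse miRNAs numbered 228 to 240 in contralateral and 243 to 310 in obstructed kidneys.

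On the scaled log2 level, miR-375 was at -4.53, -5.50, -3.63 and -5.32 in contralateral kidneys 1 to 4. It was at -2.81, -5.56, -2.91 and -3.07 in obstructed kidneys 1 to 4, the value of kidney 2 being the floor. After scaling, obstructed kidneys 1, 3 and 4 still lay above all contralateral kidneys and close to each other. Group means were -4.74 ± 0.85 in contralateral and -3.58 ± 1.32 in obstructed kidneys (SD, n = 4 each), a log2 difference of 1.16. The difference was smaller than the SD of the obstructed group.

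miR-375 did not enter the test on all 8 arrays, because it was not above background on all 4 arrays of either group. Among the 222 miRNAs that did, limma called 33 at a Benjamini-Hochberg adjusted p under 0.05, or 14.9%, with 3 higher (1.35%) and 30 lower (13.5%) in obstructed kidneys. Fitted without that filter, over all 611 miRNAs, miR-375 changed by 1.16 ± 0.77 on the log2 scale (SE, 4 arrays a group), with a limma adjusted p of 0.748, and 2.78% of miRNAs were called. A filter of 3 of 4 arrays in a group was added after the values were seen. With it, the limma adjusted p of miR-375 was 0.276 among 260 miRNAs, of which 13.8% were called. It passed that filter only through the obstructed group, in which it was high, and this favours a difference. No call was therefore made for miR-375 over 8 arrays.

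The size of the miR-375 difference rested on the array of obstructed kidney 2. Without it, and with scaling and filter recomputed, the log2 change was 1.81 ± 0.45 (SE, n = 4 contralateral and 3 obstructed, limma adjusted p = 0.0159), a level 3.52-fold higher, and the groups did not overlap. That fit called 51% of its 249 tested miRNAs, 23.3% higher, and in 25.7% of them every obstructed array lay above every contralateral one, so a single miRNA stands among many. It also let miR-375 pass the filter only through the group in which it was high, and the array left out was the one nearest to the other group, both of which favour a difference. Leaving out any other single array gave differences between 0.90 and 1.54.

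Leukocyte miRNAs moved over the same arrays. Their 7 listed members, among them miR-223 of myeloid cells and miR-142-3p of blood cells in general, had a summed log2 level of 0.98 to 1.44 in contralateral kidneys. The sums were 2.94, 0.91, 2.89 and 2.77 in obstructed kidneys 1 to 4. Obstructed kidney 2 was thus again unlike the other obstructed kidneys, here just below the contralateral range. Over 8 arrays 0 of 5 tested members were called (limma; 3 at an unadjusted p under 0.05; median log2 change 1.35), beside 1.35% called higher over all 222. Without obstructed kidney 2 all 5 of these were called higher, where 23.3% of the miRNAs in that fit were. Leaving out the array nearest to the contralateral group favours a difference here too. The other 2, miR-142-5p (above background on 0 contralateral and 3 obstructed arrays) and miR-150 (1 and 3), entered that fit only through the obstructed group, in which they were high, so their calls there add no support. In a whole kidney, more cells of a type and more RNA per cell cannot be told apart, and the part of leukocyte content or of array brightness in the miR-375 values was not tested. Within slide row 1, which held kidneys 1 and 2 of both groups, the log2 difference of miR-375 was 0.83, and within slide row 2 it was 1.49 (2 against 2 arrays each, untested).

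**Figure D2:**
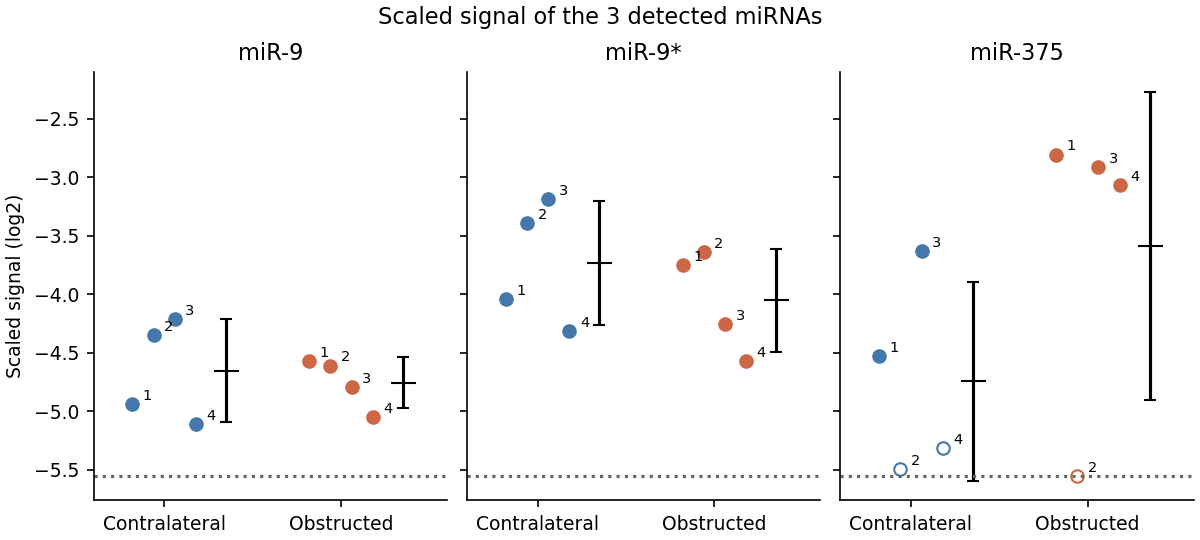
Scaled signal on a log2 axis for miR-9, miR-9* and miR-375 in contralateral and obstructed kidneys. Points are single arrays with the kidney number, filled where above background, bars give the mean ± SD of 4 arrays, and the dotted line is the floor at -5.56. For miR-375, obstructed kidneys 1, 3 and 4 sit between -3.07 and -2.81 and kidney 2 sits on the floor.

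Its 2 probes differed in brightness, and both read higher in obstructed kidneys 1, 3 and 4 than in any contralateral kidney. The dimmer probe was above background in 0 of 4 contralateral and 3 of 4 obstructed kidneys, the brighter one in 2 of 4 and 3 of 4. In obstructed kidneys 1 to 4 the brighter probe read 73.1, 8.65, 132 and 139.8, and the dimmer one 25.4, 1.18, 54.8 and 50.3. Contralateral readings of the brighter probe were 16.8, 7.58, 33.9 and 11.6. On the scaled log2 level the brighter probe differed by 1.09 between groups and the dimmer by 0.56. Each was smaller than the difference of the summed probes.

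miR-9, the guide strand known from neural progenitors, was above background in all 4 kidneys of both groups, and its difference between them was smaller than its error. Its mean processed signal was 8.38, 10.3, 14.9 and 8.41 in contralateral kidneys 1 to 4. Obstructed kidneys 1 to 4 gave 14.5, 10.5, 25.3 and 24.03. Obstructed kidneys 3 and 4, on the brightest arrays, were highest, and the groups overlapped.

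After scaling, the log2 level of miR-9 was -4.94, -4.35, -4.21 and -5.11 in contralateral and -4.57, -4.61, -4.79 and -5.05 in obstructed kidneys 1 to 4. The obstructed values lay inside the contralateral range. The log2 difference was -0.10 ± 0.24 (SE, n = 4 each, limma adjusted p = 0.771), with a 95% interval from -0.65 to 0.44. With this scaling, a change of up to 0.65 lower or 0.44 higher on the log2 scale therefore remained within the error of these arrays. The interval does not cover the choice of scaling and background correction, under which the difference varied more widely.

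miR-9*, the opposite strand, was brighter in processed signal on every array, though probes of different sequence are not comparable in brightness. In contralateral kidneys 1 to 4 its mean processed signal was 15.6, 19.9, 30.4 and 14.7. It was 25.6, 20.7, 36.8 and 33.5 in obstructed kidneys 1 to 4. Scaled log2 levels were -4.04, -3.39, -3.18 and -4.31 in contralateral and -3.75, -3.64, -4.25 and -4.57 in obstructed kidneys. These groups overlapped too.

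For miR-9* the log2 difference was -0.32 ± 0.32 (SE, n = 4 each, limma adjusted p = 0.508), with a 95% interval from -1.05 to 0.41. Over the 222 tested miRNAs, 14.9% were called, and neither strand was among them. Without obstructed kidney 2 the differences were -0.15 ± 0.27 for miR-9 and -0.46 ± 0.35 for miR-9* (SE, n = 4 and 3), with limma adjusted p-values of 0.682 and 0.310. So the array that moved miR-375 left the miR-9 strands uncalled.

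The sign of both strands depended on the scaling. Unscaled, miR-9 differed by 0.78 and miR-9* by 0.56 (limma adjusted p = 0.260 and 0.392), while the median of all tested miRNAs moved from -0.14 to 0.74. Relative to that median, miR-9 was at 0.037 and miR-9* at -0.18 both with and without scaling. This agreement was fixed in advance, because scaling shifts all log2 levels of an array above the floor by the same amount. miR-375 was 1.24 to 1.30 above that median with and without scaling, where only values at the floor could change it. Normexp background correction was run with an offset of 50 added to every spot before the scaling, which compresses differences between dim signals. With it, the median of all tested miRNAs was -0.62 and miR-375 was at -0.58, only 0.039 above that median. Why the sign of miR-375 turned was not tested.

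**Figure D3:**
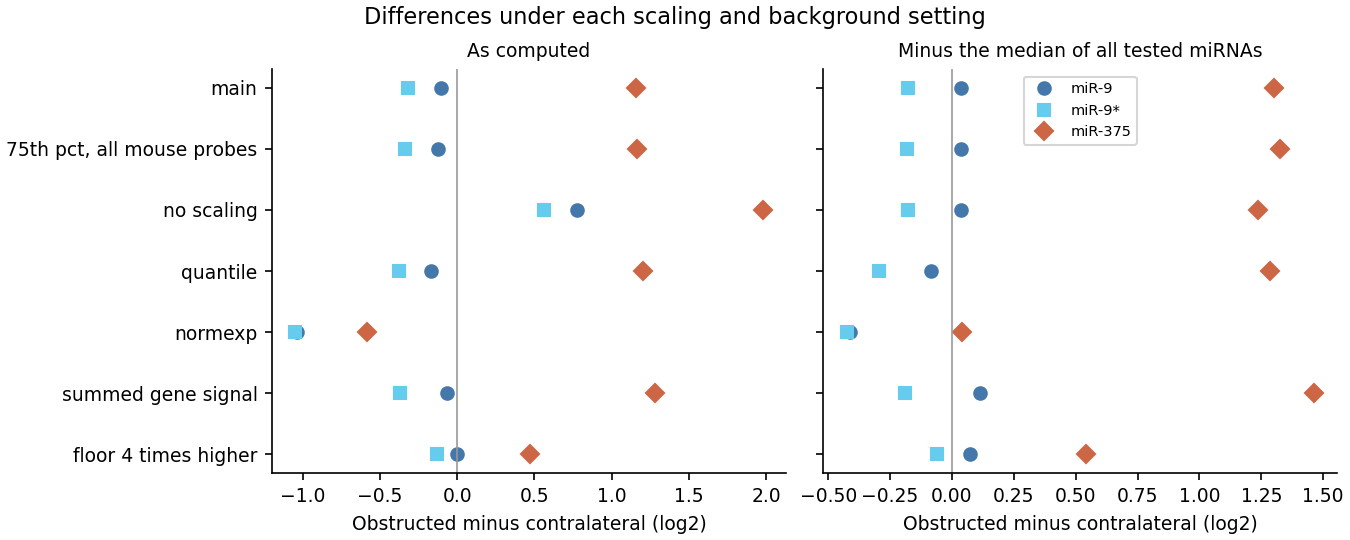
Log2 difference, obstructed minus contralateral, of miR-9, miR-9* and miR-375 (horizontal axes) under 7 settings of scaling, background and floor, as computed at the left and minus the median of all tested miRNAs at the right. miR-375 lies above 0 in every setting but normexp at the left, and the miR-9 strands change sign without scaling.

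Both strands followed the same pattern over the arrays. In contralateral kidneys, kidneys 3 and 2 were highest and kidneys 1 and 4 lowest for each strand, and obstructed kidney 4 was lowest of its group for each. Likeness was measured as the mean absolute difference of log2 levels over 8 arrays, each miRNA centred on its own mean. Between the strands it was 0.15, against a median of 0.44 from miR-9 and 0.52 from miR-9* to the other 221 tested miRNAs. miR-9 was the nearest of the 221 to miR-9*, followed by miR-551b at 0.18 and miR-141 at 0.23. miR-9* was the third nearest to miR-9, after miR-200c at 0.14 and miR-141 at 0.15. These are descriptions over shared arrays, which also share labelling and brightness.

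The strands differed in how many probes saw them. Of the 2 probes of miR-9, 1 was above background on all 8 arrays and the other on none, its readings being 2.71 to 7.31. For miR-9*, 1 probe was above background on all 8 arrays and the other in 2 of 4 contralateral and 4 of 4 obstructed kidneys. Hence, if every probe of a miRNA had to be above background, miR-9 counted on 0 arrays, miR-9* on 6 and miR-375 on 3. Of their spots that were not outliers, 44.6% carried the mark for miR-9, 89.8% for miR-9* and 53.9% for miR-375.

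**Figure D4:**
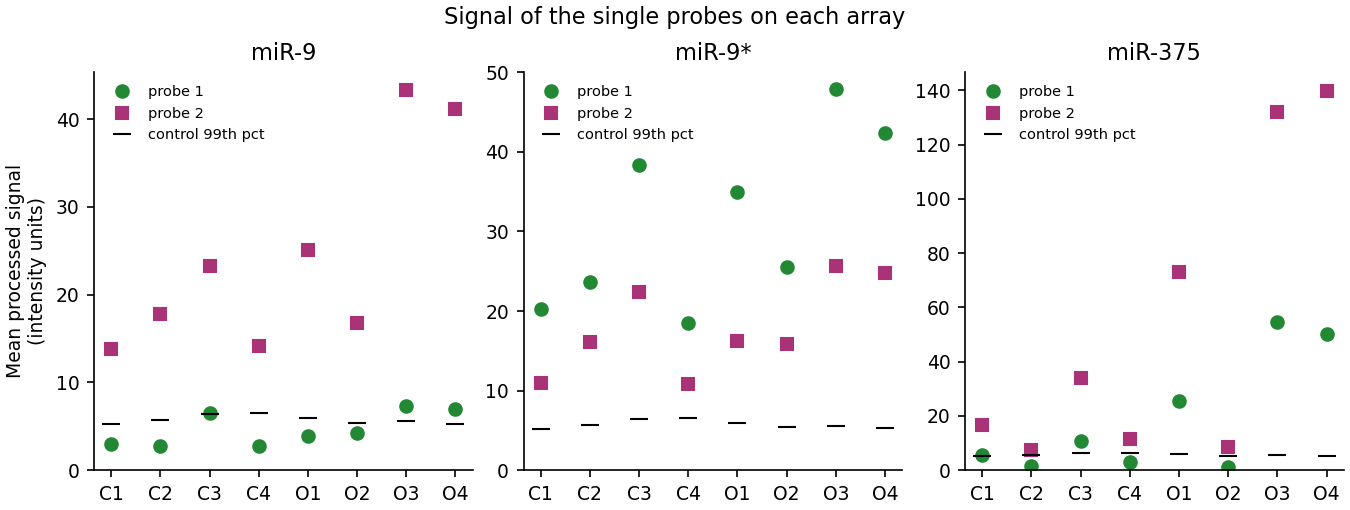
Mean processed signal (vertical axis, intensity units) of each of the 2 probes of miR-9, miR-9* and miR-375 on the arrays of contralateral kidneys C1 to C4 and obstructed kidneys O1 to O4, with the 99th percentile of negative control spots as black bars. Both probes of miR-375 are high in obstructed kidneys 1, 3 and 4, whereas probe 1 of miR-9 stays between 2.71 and 7.31 on every array.

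Most other miRNAs of neural tissue went undetected. Of 16 on the list, 11 were above background on no array, including miR-137, miR-138 and miR-153, and 3 on all 8, namely miR-128, miR-7a and miR-326. Over all 611 mouse miRNAs the shares were 47.5% on no array and 33.6% on all 8. Of the 3 tested, 0 were called (limma; 0 at an unadjusted p under 0.05; median log2 change -0.27, against -0.14 over all 222). Those 3 were at -0.27 ± 0.15, -0.31 ± 0.19 and -0.03 ± 0.15 in the order named (SE, n = 4 each). Markers of embryonic stem cells, of the miR-290 and miR-302 clusters, were above background on no array for 11 of 13 and on all 8 for 0.

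The liver and pancreas lists held miRNAs that kidney also expresses. All 3 of the other liver miRNAs on the array, miR-148a, miR-192 and miR-194, were above background on all 8 arrays. miR-192 and miR-194 are also abundant in kidney tubules, and they were the 2 of 3 that fell, where 13.5% of all 222 tested miRNAs were called lower. Of 4 other endocrine and pancreatic miRNAs, miR-7a and miR-148a were above background on all 8 arrays and 0 of these 2 tested were called (limma; 0 at an unadjusted p under 0.05). miR-148a, listed under both organs, was at 0.44 ± 0.28 over 8 arrays (SE, n = 4 each, limma adjusted p = 0.279). Without obstructed kidney 2 it was at 0.71 ± 0.17 and was called (SE, n = 4 and 3, limma adjusted p = 0.0151), in the fit that called 23.3% of miRNAs higher. In the list for kidney tubules, 10 of 11 were above background on all 8 arrays, beside 33.6% of all 611 mouse miRNAs. Of the 10 tested, 0 rose and 4 fell, again beside 13.5% lower over all 222. The summed log2 level of this list was 5.90 to 6.00 in contralateral and 4.96 to 5.65 in obstructed kidneys. Obstructed kidney 2 had the highest of the obstructed values, yet lay below every contralateral kidney. Without obstructed kidney 2, 8 of these 10 were called lower, beside 27.7% of all miRNAs tested in that fit. As for miR-375, leaving out the array nearest to the contralateral group favours such calls, that of miR-148a included.

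**Figure D5:**
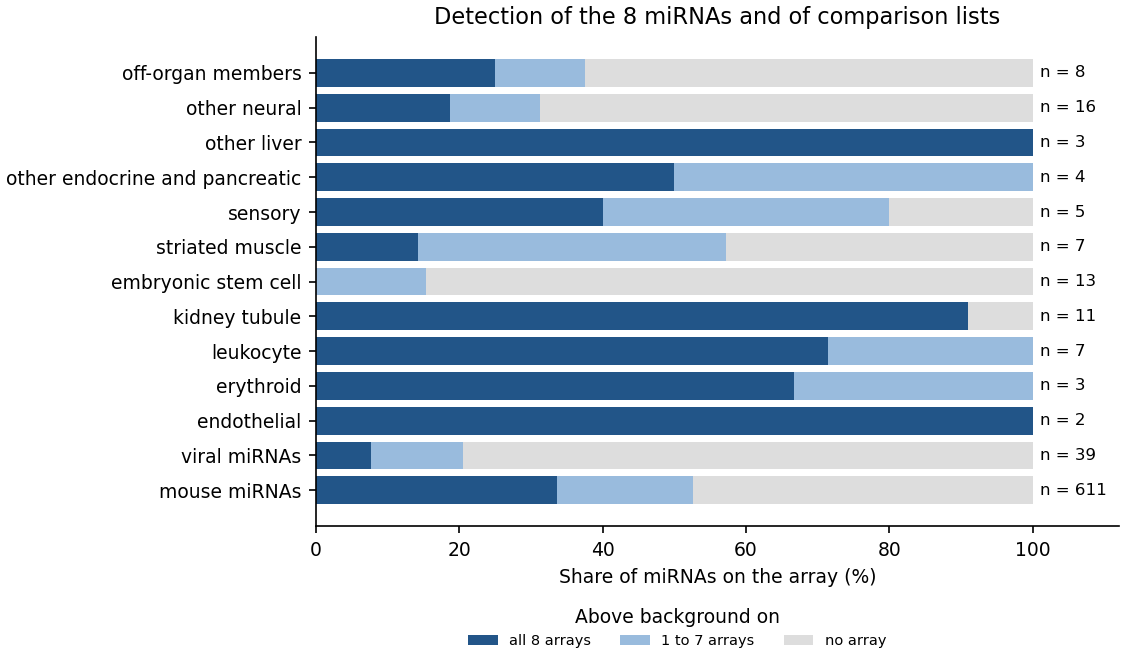
Share of the miRNAs of each list (horizontal axis, percent of those on the array) that were above background on all 8 arrays, on 1 to 7 arrays, or on no array, with the number of miRNAs at the right. On no array above background were 5 of the 8 miRNAs of other organs, 11 of 16 other neural miRNAs and 1 of 11 of the kidney tubule list. Over all 611 mouse miRNAs the share was 47.5%.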

How the data were processed

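Per the file headers, Agilent Feature Extraction (10.7.3.1, and 10.1.1 per the submitters' processing notes) read each array, subtracted background and marked outlier spots, and the authors deposited these intensities unscaled. Other deposited columns that were read held median spot signals, background signals, summed gene signals and marks of 0 or 1. All 8 arrays share 1 slide and 1 scan. Outlier spots (2.34% to 3.52%) were dropped, spots averaged per probe, and probes scaled and summed as the text describes. To set the floor, the 1st percentile of scaled signal was taken among the above-background probes of each array, and the arrays' median used. A miRNA was tested when above background on all 4 arrays of a group, with limma 3.58.1 in R 4.3.3 (lmFit and eBayes, two-sided). The fit was tested on simulated data. Files were read in Python 3.11.15 with pandas 2.3.3, and plots drawn with matplotlib 3.10.9.

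Members, lists and rules were chosen with earlier results of these data known. The naming rule took all 8 members, the 3 nearest miRNAs of members above background on all arrays, and examples from the lists. Equal kidney numbers were not used to pair the samples in the main fit, because the labels do not say that they mark the same mouse. Correlations of their deviations were -0.35, 0.22, 0.62 and 0.015. So few values cannot decide whether the kidneys were paired. Sequences came from RefSeq (GRCm38.p6) for 5 of 8 members.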

Additional observations from a re-analysis of the deposited data

Results flagged for a closer look

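The scaled log2 level of miR-375 in obstructed kidney 2, -5.56, lay far below the other obstructed kidneys. Its gap to the next kidney was 0.904 of the group's range, past the 95% limit of Dixon's test for 4 samples, which chance passes in about 1 group of 20. Among the groups examined for miR-9, miR-9* and miR-375, no other passed it.

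Probes for viral miRNAs, used in no comparison between the groups, were above background by the main rule more often on 3 obstructed arrays than on any contralateral array. Each contralateral array and that of obstructed kidney 1 had 3 of 39 viral miRNAs above background, while obstructed kidneys 2, 3 and 4 had 5, 4 and 7. The arrays of obstructed kidneys 1 to 4 had 250, 243, 288 and 310 mouse miRNAs above background, against 228 to 240 on contralateral arrays. By the scanner software's call per gene, viral miRNAs numbered 7, 4, 4 and 4 for contralateral kidneys 1 to 4. For obstructed kidneys 1 to 4 that call gave 5, 7, 7 and 8. The cause was not tested.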

How the results depend on the processing

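Neither miR-9 nor miR-9* was called under any alternative tried, whichever sign it took. Their differences turned positive without scaling (0.78 and 0.56) and with the unscaled series matrix (0.81 and 0.56). Within slide row 1 they were 0.051 and 0.024, and with array weights miR-9 was at 0.12. Over the fits that left out a single array, miR-9 ranged from -0.26 to 0.061, miR-9* from -0.52 to -0.12 and miR-375 from 0.90 to 1.81. Of these fits, miR-375 passed the filter and was tested only in that without obstructed kidney 2, where it was called. It entered that fit only through the obstructed group, in which it was high, and the fit called 51% of its 249 miRNAs. Normexp was run on median spot signals, because mean spot signals were lacking. With it, miR-9 was at -1.04, miR-9* at -1.05 and miR-375 at -0.58, where the median of all tested miRNAs was -0.62. The 5 undetected miRNAs were above background on 0 arrays under all 4 detection rules. miR-9 counted on 0 and miR-375 on 3 arrays if every probe had to be above background, and miR-375 on 8 by the scanner software's call per gene.

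Of all miRNAs tested, limma called 14.9% in the main setting. It called 0 with scaling over all mouse probes (56 at an unadjusted p under 0.05), 0 with normexp (54) and 0 within slide row 1 (1). The share was 1.35% without scaling, with quantile normalization and with the series matrix, 2.78% without the filter, 31.1% within slide row 2 and 62.2% with array weights. Leaving out single arrays gave 0% to 51.0%, the highest without obstructed kidney 2. With the kidney number as a replicate block it called 0 (67 at an unadjusted p under 0.05), and miR-9 and miR-9* kept -0.10 and -0.32 (adjusted p = 0.711 and 0.406). miR-375 was outside the block and weight fits, since it did not pass the filter. Signal close to background limits all of these members.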
